A study of Arabidopsis thaliana with 18 samples.

Results

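The genes described here had lower transcript levels 24 h after induction of DUO1 in Arabidopsis thaliana seedlings. At 6 h they were little or not at all lower. They were chosen by their measured values, from probe sets other than the AFFX controls. A probe set entered when its mean signal in not induced plants at 24 h was at least 30, its difference of mean log2 signal (induced minus not induced) was above -0.3 at 6 h, and that difference was -1 or lower at 24 h. Expansin genes and 5 further genes named in the rule were left out, which removed 1 probe set that met the thresholds, that of RR16. This left 83 probe sets of the 22746 tested. Of the 83 members, 34 carried 1 gene name in the annotation used here, 4 carried several and 45 carried none. Members without a gene name are described by their values alone.

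The plants were whole seedlings in the Col-0 background carrying pMDC7DUO1, recorded as a T-DNA mutation, grown on plates with hygromycin for 12 days in constant light. The vector pMDC7 gives oestradiol-inducible expression, and the labels do not say how many transgenic lines were used. Plants with and without induction were harvested after 6 h, 12 h or 24 h, which gave 6 groups of 3 arrays, 18 in all. Every group carried the construct, and no group analysed here received the inducer without it, so effects of DUO1 and of the inducer cannot be told apart. The labels do not say whether the 3 arrays of a group came from separate plates, and the p-values speak only for the spread among these arrays, which may be technical. Values are MAS5 signals on a linear scale from Affymetrix ATH1 arrays. Median signals of the arrays lay between 34.3 and 39.5, and the background level, taken as the highest of 27 control probe sets whose transcripts were not added, was at most 10.1. The number of arrays limits the precision. None of the tested probe sets was named DUO1, and its known target MGH3, a sperm cell histone H3, lay between 144 and 643 on the 9 induced arrays and at 6.04 or lower on the 9 others.

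DUO1 is a MYB transcription factor that is normally made in the male germline of pollen, where it switches on genes of the sperm cells. Seedlings do not normally make it, so its presence there is ectopic. The named members are ordered here by groups assigned by hand from background knowledge, after their values were seen. These groups include antimicrobial peptides and pathogenesis-related proteins, extensins, which are wall glycoproteins that peroxidases can cross-link, and small lipid transfer proteins of the cell surface. In bulk samples such as these, fewer cells of a type and less RNA per cell cannot be told apart.

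The 6 h and 24 h contrasts chose the members, so values at those times are a description. The median difference over the 83 members was -0.04 at 6 h, with a range from -0.29 to 1.28, and -1.27 at 24 h, with a range from -4.45 to -1.01. At 24 h, 79 of the 83 passed limma with an adjusted p under 0.05, where 3.9% of all tested probe sets were called lower. At 6 h, 0 members were called lower and 0 higher by limma (2 were higher and 0 lower at an unadjusted p under 0.05), where 0.396% and 0.572% of all probe sets were called. All 3 induced arrays lay above all 3 not induced arrays at 6 h for 4 members and below them for 2, where 8.7% and 6.02% of all tested probe sets did so. Nearest the signal threshold, AT3G54580, AT1G05700 and a probe set with no gene name lay just inside it at 30.4, 30.5 and 30.7, and AT3G28550, between 2 unnamed probe sets at 29.8 and 29.3, lay just outside it at 29.6. For the 6 h threshold, AT4G12500 was just inside at -0.29 with 2 unnamed probe sets at -0.29 and -0.28, and AT5G44020, a probe set for AT4G37530 and AT4G37520 and an unnamed probe set were just outside at -0.31. The members nearest the 24 h threshold were AT5G40450, AT5G23830 and AT1G76240 at -1.01, -1.01 and -1.02, and AT4G28650 stood outside it at -0.99, followed by 2 unnamed probe sets at -0.98 and -0.97. Applied without each array of 6 h or 24 h in turn, the rule chose 75 to 95 probe sets, among them 68 to 80 of the 83.

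**Figure D1:**
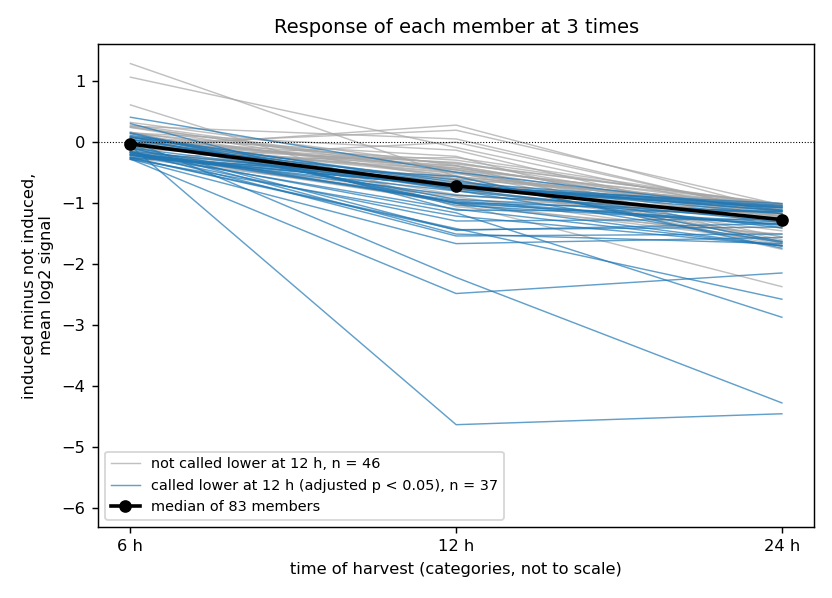
Difference of mean log2 signal between induced and not induced plants (y axis) at 6 h, 12 h and 24 h (x axis, as categories) for each of the 83 members; each line is 1 probe set, blue for the 37 called lower at 12 h, and the black line is the median. The median stood at -0.04, -0.72 and -1.27, and the 6 h and 24 h values were used to choose the members.

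The arrays of 12 h played no part in that choice, and they were used to ask whether the members already differed between those times. At 12 h the members were mostly lower in induced plants, by a median of -0.72 on the log2 scale, against a median of 0.04 over all tested probe sets and 0.01 over the 12378 probe sets that met the signal threshold. The 12 h difference was below 0 for 80 of the 83 members, where 45.6% of all tested probe sets and 48.2% of those meeting the signal threshold were lower. It was -1 or lower for 19 members, where 4.77% of all tested probe sets and 1.18% of those meeting the signal threshold were. Limma with all 18 arrays called 37 members lower (adjusted p under 0.05), which is 44.6% of them, where 1.93% of all tested probe sets and 3.1% of those meeting the signal threshold were called lower. By limma 0 members were called higher at 12 h, and 0 were higher at an unadjusted p under 0.05, where 2.91% of all tested probe sets and 3.55% of those meeting the signal threshold were called higher. For 60 members all 3 induced arrays lay below all 3 not induced arrays at 12 h. Of all tested probe sets 9.88% did so, and of those meeting the signal threshold 13.8%.

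Single arrays moved the count of calls. It was 20 without replicate 3 of the not induced 12 h plants, 24 when replicate 1 of the induced plants was left out and 21 when their replicate 2 was. A fit with no intensity trend gave 23. Calls of a lower level over all tested probe sets moved too. They numbered 440 in the main fit, and 266, 416, 248 and 313 in these fits, in the same order. In the not induced plants at 12 h, replicate 3 held the highest of the 3 signals for 45 of the 83 members, and its median over the members was 0.10 above the group mean on the log2 scale. The medians of the 3 induced arrays, each against the mean of the not induced plants, were -0.80, -0.77 and -0.63. Fitted on the 12 h arrays alone, with no array that had chosen the members, limma called 39 members lower, 31 of them also among the 37. Of all tested probe sets, 392 were called lower in that fit.

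**Figure D2:**
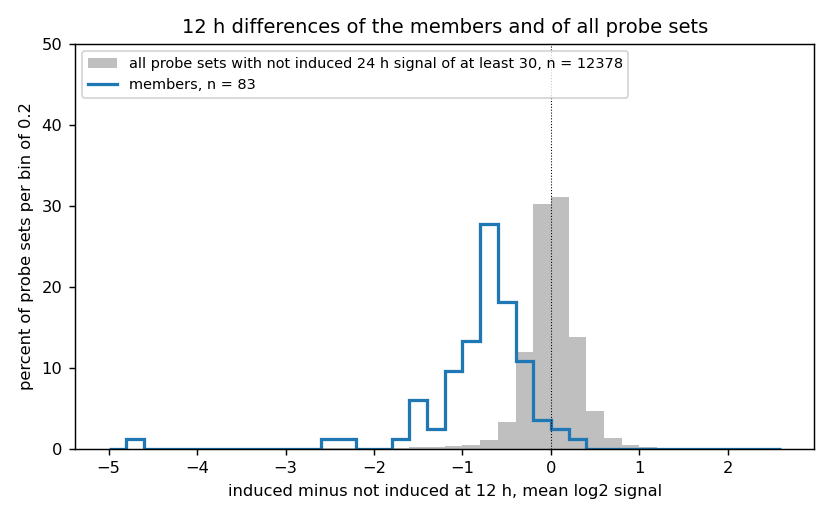
Percent of probe sets (y axis) per bin of 0.2 in the 12 h difference of mean log2 signal between induced and not induced plants (x axis), for the 83 members (blue line) and for the 12378 probe sets with a mean signal of at least 30 in not induced plants at 24 h (grey). The members centred on -0.72 and the grey distribution on 0.01.

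The group of secreted proteins of the kind that accumulate in defence held 9 probe sets, of which 4 were called lower at 12 h. Among all 83 members 44.6% were called lower, and 1.93% of all tested probe sets. The counts in this group and those below are too small to set any group apart from the other members. AT2G19970, a member of the CAP superfamily to which the pathogenesis-related protein PR-1 belongs, had the most negative 24 h difference of any member with a gene name. Its not induced signals were 36.8, 43.4 and 56.0 at 12 h, and its induced signals were 6.46, 10.7 and 12.8. The groups did not overlap, and the gene fell 4.66-fold (log2 difference -2.22 ± 0.63 SE, limma adjusted p = 0.0468). By 24 h the not induced signals had reached 92.8, 90.4 and 94.9, while those of induced plants were 0.893, 10.0 and 12.3, the lowest of them at background. Without any 1 of the 12 h arrays the gene lost its call, with an adjusted p up to 0.163 over the alternatives. A second CAP gene, AT1G50060, had signals of 11.2 ± 4.30 (SD, n = 3) against 19.1 ± 6.63 at 12 h, where the groups overlapped (limma adjusted p = 0.248).

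AT4G16260, a glycosyl hydrolase of the beta-1,3-glucanase family, whose members cut a polymer found in fungal walls and plant callose, was one of the clearest falls at 12 h. Its signals were 109, 119 and 119 in not induced plants and 40.2, 40.8 and 37.9 in induced plants, so the groups were far apart and the spread within each was small (log2 difference -1.54 ± 0.27 SE, limma adjusted p = 0.00118). At 24 h the values were 119 ± 30.1 and 43.5 ± 16.1, a difference of -1.51 that was no larger than that at 12 h. AT3G16530, of the legume lectin family of sugar-binding proteins, fell from 238, 319.9 and 641 to 117, 142 and 144 at 12 h (log2 difference -1.45 ± 0.23 SE, limma adjusted p = 0.000543). Its highest value was that of not induced replicate 3, and the call remained without that array. Both genes kept their calls in every alternative run. The probe set shared by AT5G42510 and AT5G42500, which encode dirigent-like proteins, fell by 0.77 on the log2 scale at 12 h, from 55.7 ± 7.64 to 33.1 ± 7.92 (limma adjusted p = 0.0284), and its signal cannot be divided between those genes. That call was lost without not induced replicate 1 or 3 or induced replicate 2 (adjusted p up to 0.189 over the alternatives). OSM34, an osmotin of the thaumatin-like PR-5 type, had no overlap at 12 h, with 204, 259.9 and 183 against 148, 154 and 120.3, but did not pass (limma adjusted p = 0.222).

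Defensins, small cysteine-rich antimicrobial peptides, showed no difference at 12 h that passed the test. PDF1.2, a defensin induced by jasmonate and ethylene, had 12 h signals of 57.6, 156 and 80.2 in not induced plants and 78.2, 121 and 83.7 in induced plants, which overlapped almost fully (log2 difference 0.05 ± 0.38 SE, limma adjusted p = 0.97). At 24 h they were 105, 63.2 and 84.4 against 49.8, 32.5 and 29.4, which did not pass although the rule had chosen them (limma adjusted p = 0.0605). The probe set named PDF1.2b, whose ID ends in _x_at and can bind transcripts of near-identical defensins, ranged from 96.7 to 730.0 among the 3 not induced 12 h arrays, and replicate 2 was also the highest of the not induced arrays at 6 h (adjusted p of 0.965 at 12 h and 0.291 at 24 h by limma). Neither of these 2 defensin probe sets is therefore a called change at any time. AT4G22212, a defensin-like gene, differed from them. Its 12 h signals were 198, 178 and 354 not induced and 237, 198 and 199.9 induced (log2 difference -0.14 ± 0.17 SE, limma adjusted p = 0.762), and at 24 h they were 235, 203 and 194 against 92.1, 75.1 and 70.5. The other measured genes named as plant defensins, PDF1.4, PDF2.1 and PDF2.5, did not pass at any time.

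Cell wall proteins were a smaller set of 3, of which 2 fell at 12 h. AT1G23720, a proline-rich extensin-like gene, had 12 h signals of 93.1, 64.0 and 106 without and 28.9, 28.8 and 32.9 with induction, and all induced values lay below all others (log2 difference -1.51 ± 0.25 SE, limma adjusted p = 0.000642). Not induced plants went from 49.5 ± 16.4 at 6 h to 110.5 ± 30.2 at 24 h, and induced plants from 46.1 ± 12.8 to 34.4 ± 5.98. Its probe set ID also ends in _x_at, and signal from related extensin transcripts cannot be told apart from its own. AT2G35380, a class III peroxidase gene, fell by 0.70 on the log2 scale, from 58.9, 49.0 and 55.0 to 29.5, 34.4 and 36.4 (limma adjusted p = 0.0488), a call that was lost without any 1 of the 12 h arrays. The extensin-like gene AT3G54580, with 19.3, 25.7 and 24.2 against 9.14, 11.3 and 18.7, had separate groups but did not pass (limma adjusted p = 0.186).

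Among genes for lipid-binding proteins, AT4G12500 belongs to the bifunctional inhibitor and lipid transfer family. It fell from 143, 145 and 133 to 81.2, 42.8 and 63.3 at 12 h (log2 difference -1.22 ± 0.24 SE, limma adjusted p = 0.00448) and kept this call in every alternative. Its 6 h values, 145, 96.6 and 88.6 against 77.7, 125 and 70.9, overlapped. A probe set for AT5G46900 and AT5G46890, of the same family, stood out by its change in plants without induction, from 93.0 ± 49.2 at 6 h through 188 ± 46.9 to 419 ± 70.3 at 24 h. In induced plants it went from 139.7 ± 60.9 through 89.3 ± 19.0 to 151 ± 50.8, and the 12 h difference did not pass (limma adjusted p = 0.069). AT5G23830, which encodes a protein with an MD-2-related lipid recognition domain, had 12 h signals of 223, 219 and 269.8 and 168, 192 and 157, separate but not past the threshold (limma adjusted p = 0.0918).

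**Figure D3:**
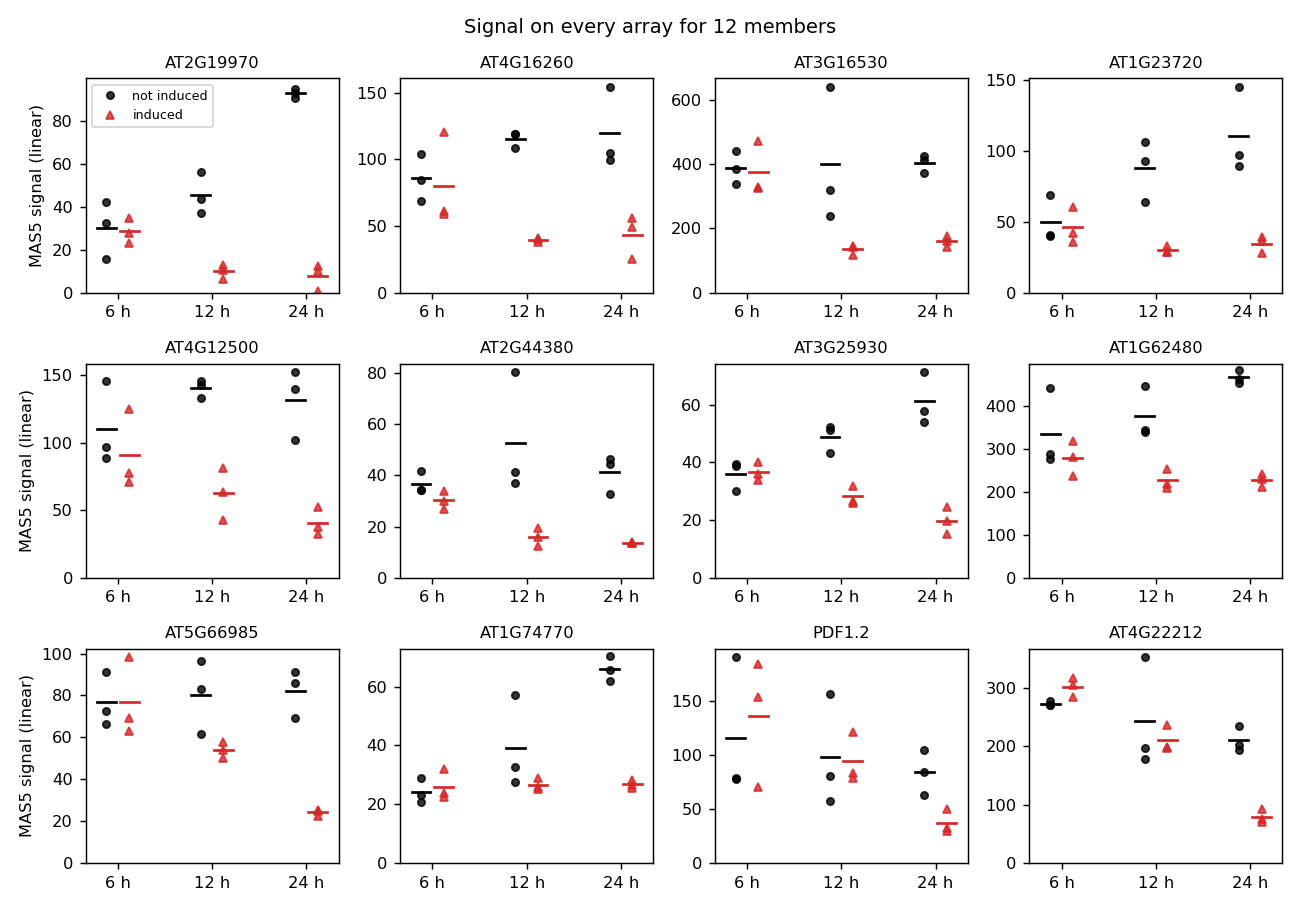
MAS5 signal on a linear scale (y axis) for 12 members on every array at 6 h, 12 h and 24 h (x axis), with black circles for not induced and red triangles for induced plants and short bars for group means (n = 3 arrays). At 24 h the 3 induced arrays lie below the 3 not induced arrays for all 12 genes, and at 12 h they do so for 9 of them, AT1G74770, PDF1.2 and AT4G22212 being the exceptions.

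Genes for signalling and protein turnover gave 2 further calls at 12 h among 4. AT2G44380, with a cysteine- and histidine-rich C1 domain, fell from 41.3, 36.9 and 80.2 to 19.5, 12.2 and 16.0 (log2 difference -1.67 ± 0.26 SE, limma adjusted p = 0.000404). Its 24 h difference, -1.57, was of the same size, and its induced 24 h arrays, at 14.0, 13.5 and 13.7, were nearly alike. The groups were already separate at 6 h, with 41.6, 34.3 and 34.3 not induced against 29.8, 33.8 and 27.0 induced. That 6 h difference was -0.28 (limma adjusted p = 0.697). AT1G05700, a leucine-rich repeat receptor-like kinase gene, fell from 28.6, 22.9 and 34.8 to 12.5, 5.46 and 16.8, with 1 of the induced arrays at background (log2 difference -1.44 ± 0.40 SE, limma adjusted p = 0.0391), and it lost its call in 8 of 15 alternatives, among them the removal of any 12 h array but induced replicate 3 (adjusted p up to 0.241). AT1G74770 encodes a BRUTUS-like E3 ubiquitin ligase, a class that limits the iron deficiency response of roots. Without induction its signals went from 24.2 ± 4.07 at 6 h to 66.0 ± 4.33 at 24 h, whereas in induced plants they were 25.9 ± 5.15, 26.6 ± 2.11 and 26.7 ± 1.55 at the 3 times. At 12 h it did not pass (limma adjusted p = 0.285). AT1G23390, a kelch repeat F-box gene, was among the 5 named members nearest to no difference at 12 h, with 180.1, 263 and 254 against 172, 312 and 332, and its induced values lay within a narrow range of 91.7 to 95.7 at 24 h.

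Members of metabolism, transport and redox balance gave 3 calls at 12 h, all 3 among the 5 genes of transport and metabolism. AT1G62480, related to vacuolar calcium-binding proteins, fell from 339, 344 and 447 to 209, 219 and 253 at 12 h (log2 difference -0.72 ± 0.15 SE, limma adjusted p = 0.00558) and kept its call in every alternative. AT5G14120, a transporter-like gene of the major facilitator superfamily, fell by 0.70 (limma adjusted p = 0.0396), but not induced replicate 3 alone stood at 945 against 481 and 514, and the call was lost without that array or any 1 of the induced arrays (adjusted p up to 0.235 over the alternatives). AT4G02850, of the phenazine biosynthesis-like PhzF family, fell by 0.77 from 114 ± 19.7 to 67.2 ± 11.3 (limma adjusted p = 0.0235), a call lost without not induced replicate 3 or induced replicate 1 (adjusted p up to 0.138). Of the 3 redox genes, 0 passed at 12 h by limma. AT1G06830, a glutaredoxin gene, had signals of 196, 159 and 89.5 without and 90.8, 45.7 and 84.2 with induction, which overlapped narrowly (limma adjusted p = 0.0565). The glutaredoxin gene AT2G47880 was the 1 member whose groups overlapped at 24 h, with 64.6, 127 and 104 against 86.2, 22.6 and 43.9 (limma adjusted p = 0.15). MSRB6, a methionine sulfoxide reductase gene that repairs oxidised proteins, had a 12 h difference of -0.39 ± 0.25 SE (limma adjusted p = 0.488) and 24 h signals of 120.1, 129 and 136 against 86.6, 40.2 and 42.6. The other measured MSRB genes, MSRB3, MSRB5 and MSRB9, had 24 h differences between -0.05 and 0.07 and did not pass.

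The group of universal stress protein genes held 2 members, of which 1 was called at 12 h. AT3G25930 fell from 51.4, 43.3 and 52.2 to 26.1, 26.8 and 31.7 at 12 h (log2 difference -0.80 ± 0.19 SE, limma adjusted p = 0.0174), and stood at 61.2 ± 9.12 against 19.8 ± 4.75 at 24 h. The 12 h call was lost without not induced replicate 1 or 3 or induced replicate 1 or 2 (adjusted p up to 0.0777). AT1G09740 had separate 12 h groups, 83.7, 81.7 and 64.9 against 44.9, 45.7 and 52.8, with a limma adjusted p of 0.0583. AT3G51330, of the aspartyl protease family, had the second most negative 24 h difference among members with 1 gene, -2.37, from 35.1, 40.5 and 49.8 to 1.73, 15.8 and 18.7 with 1 induced array at background. Its 12 h groups were separate, at 38.2, 39.2 and 48.7 and 12.3, 23.6 and 30.7, but the difference did not pass (limma adjusted p = 0.42). AT2G37750 fell from 74.7, 83.5 and 82.6 to 39.8, 40.2 and 43.3 (log2 difference -0.97 ± 0.24 SE, limma adjusted p = 0.0223), a call lost without any 1 of the 12 h arrays but not induced replicate 1 (adjusted p up to 0.0816). AT5G66985 had 83.1, 61.6 and 96.5 against 53.9, 50.3 and 57.8 at 12 h, which did not pass (limma adjusted p = 0.0966), and 69.4, 86.1 and 91.4 against 25.4, 22.5 and 24.6 at 24 h. AT5G14330 was the named member farthest above 0 at 12 h, with 16.7, 14.3 and 12.7 induced against 12.1, 19.2 and 7.45 not induced (limma adjusted p = 0.752).

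Of the 45 members without a gene name, 22 were called lower at 12 h, beside 14 of the 34 with 1 gene and 1 of the 4 with several. One of the members without a gene name had the most negative difference of all 83 at 12 h and at 24 h. At 12 h it was at background on all 3 induced arrays, against 12.4, 9.28 and 129 in not induced plants. In mean log2 signal it was at least 4.43-fold lower (limma adjusted p = 0.00118). That bound leans on the array at 129 and does not hold for each not induced array. The not induced groups of this probe set were themselves uneven, since replicate 3 at 12 h resembled the 24 h arrays (151, 258 and 182) and the other 2 resembled those of 6 h (26.6, 13.0 and 20.9).

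The word lowered describes the comparison with not induced plants at the same time, and the levels over time differed among members. In mean log2 signal, 76 of the 83 members were lower at 24 h than at 6 h in induced plants and 69 were higher in not induced plants, and since the rule used arrays of both times these are descriptions without a test. The median difference between these times was -0.81 in induced and 0.42 in not induced plants, against 0.02 and 0.05 over all tested probe sets. Counting only differences of at least 1, 32 members were lower at 24 h in induced plants without being higher in not induced plants. They include PDF1.2b (-2.58 in induced plants), AT4G22212 (-1.94) and MSRB6 (-1.68). Another 16 were higher at 24 h in not induced plants without being lower in induced plants, such as AT1G06830, with differences of 1.67 in not induced and 0.23 in induced plants, and AT1G74770, with 1.46 and 0.06. AT2G19970 and the unnamed probe set with the most negative 24 h difference did both, and 33 members did neither. Between 6 h and 12 h the median difference was 0.37 in not induced and -0.43 in induced plants. For the median member, 55.2% of the 24 h log2 difference was present at 12 h, and for 7 members the 12 h difference was the more negative. The 24 h difference chose the members and the 12 h difference did not, so that share may be too low.

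**Figure D4:**
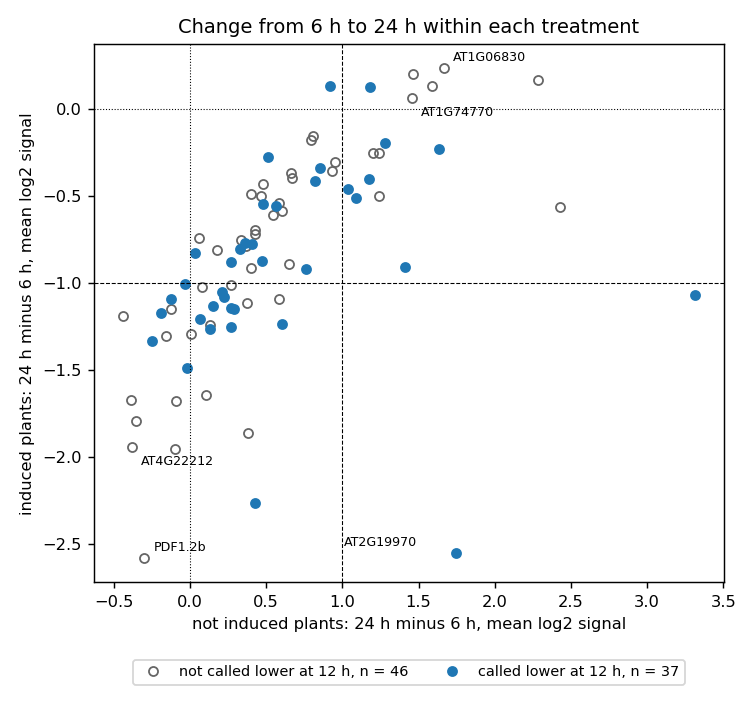
Change in mean log2 signal from 6 h to 24 h in not induced plants (x axis) and in induced plants (y axis) for the 83 members, filled in blue for the 37 called lower at 12 h. Dashed lines mark a rise of 1 and a fall of 1: 32 members lie below the horizontal line only, 16 to the right of the vertical line only, and 2 beyond both.

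A set that met the same signal and 24 h thresholds but had a 6 h difference of -0.3 or lower held 157 probe sets. At 12 h limma called 118 of these lower, 75.2%, with a median difference of -1.27, beside 44.6% and -0.72 for the late members. In not induced plants their median difference between 6 h and 12 h was 0.09, beside 0.37 for the late members. These sets were divided by their 6 h values and the difference between them was not tested. Genes left out of the members by name were not removed from the other set.

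The members with 1 gene were spread over the chromosomes, with 9 on chromosome 1, 6 on chromosome 2, 5 on chromosome 3, 6 on chromosome 4 and 8 on chromosome 5, and none was within 2 protein-coding genes of another. The neighbours of these 34 genes within 2 genes on each side, by the RefSeq gene order of TAIR10.1, were measured by 68 probe sets with 1 gene. The rule had screened these probe sets too, and none of them was a member. By limma 4 of them were lower at 12 h (5.88%, where 1.93% of all tested probe sets were) and 6 at 24 h (8.82%, where 3.9% were), and 0 were higher at either time (3 and 4 at an unadjusted p under 0.05). Some of these belong to the family of the member beside them, and were picked out after their values were seen. HRGP1, a hydroxyproline-rich glycoprotein gene next to the extensin-like AT3G54580, fell from 142 ± 13.7 to 55.2 ± 3.62 at 12 h (limma adjusted p = 1.81e-05), on a probe set that may also bind related transcripts. AT4G12490, a lipid transfer gene near AT4G12500, fell from 298 ± 48.6 to 137 ± 62.0 (limma adjusted p = 0.0148). Both HRGP1 and AT4G12490 met the signal and 24 h thresholds of the rule. They missed membership by their 6 h differences of -0.35 and -0.63, and so belong to the comparison set above. AT2G44370, a C1 domain gene beside AT2G44380, fell from 27.3 ± 2.58 to 6.72 ± 5.08 (limma adjusted p = 0.0357), with 1 induced array at background. The fourth gene called at 12 h was AT3G25940. This neighbour, beside the universal stress protein gene AT3G25930, fell from 149 ± 17.3 to 85.0 ± 6.33 (limma adjusted p = 0.000418). AT5G23840, next to AT5G23830 and of the same domain family, was not called at 12 h (limma adjusted p = 0.309) and fell at 24 h from 19.8 ± 2.16 to 4.57 ± 2.53 (limma adjusted p = 0.00325), with 2 induced arrays at background. Of the 68 neighbours, 13 were at background on all 3 not induced arrays at 12 h and 10 at 24 h, where a fall could not be measured.

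Lists of pathway and organ genes held none of the members, and few of their genes were named in the annotation. Of 15 lists, 5 had no measured gene, those of root nutrient uptake, endodermis and suberin, secondary wall and xylem, gibberellin and brassinosteroid, and salicylic acid and defence. The other 10 lists held 15 measured genes. At 12 h limma called 0 of them lower (3 at an unadjusted p under 0.05) and 2 higher, MGH3 and TET11 of the DUO1 pathway list, whose other measured gene, TET12, was at background on 11 of the 18 arrays. At 24 h these 2 and DFR, of flavonoid synthesis, were higher, while ARR15 of the cytokinin list, with all 3 induced arrays at background, and BCAT4 of the glucosinolate list were lower. GH3.3 of the auxin list, JMT of the jasmonate list and GI of the clock list did not pass at any time. XTH26 of the root hair list was at background on 17 of the 18 arrays and IAA29 of the auxin list on 12, which limits what they can show. Of the 9 root identity genes 2 were measured, PYK10 and AT5G48940, and 0 of them passed. Their summed signal was 3468 to 4124 on induced and 4129 to 4224 on not induced arrays at 12 h, and 3182 to 3391 against 3846 to 4072 at 24 h. Of all tested probe sets, 9.88% and 12.1% were lower without overlap at these times. The sum was nearly that of PYK10 alone, with means of 3824 against 33.1 for AT5G48940 on the induced 12 h arrays. The log2 differences at 12 h and 24 h were -0.12 and -0.27 for PYK10 and 0.41 and -0.06 for AT5G48940. The 2 measured of 10 shoot and photosynthesis genes, RCA and LHCB4.1, summed to 9401 to 9943 against 9621 to 10459 at 12 h and 7987 to 11448 against 8214 to 9070 at 24 h, and did not pass. No measured gene of these 2 organ lists was at background on all arrays. The part that a shift between root and shoot RNA had in the members' values was not tested.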

How the data were processed

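Whole seedlings with DUO1 in pMDC7, induced or not induced for 6 h, 12 h and 24 h, were measured on 3 ATH1 arrays per group. The deposited intensity values are MAS5 signals on a linear scale made with GCOS, per the submitters' processing notes, and no version of GCOS was stated. Each array had a trimmed mean of 100 (2% left out at each end).

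Of 22810 probe sets, 64 controls were left out. Names came from the platform annotation, updated through RefSeq (TAIR10.1): 13513 tested probe sets had 1 gene, 503 several and 8730 none. The fit used limma 3.58.1 (R 4.3.3) on log2 signals, with 1 mean per group over 18 arrays, with an intensity trend, 12 residual and 7.69 prior degrees of freedom, and Benjamini-Hochberg adjustment over 22746 probe sets. On data simulated for the 12 h comparison, 50% of 2-fold and 75% of 4-fold decreases were recovered, and 7 unchanged probe sets were called. The changed probe sets were drawn at random from all tested ones, dim ones included. These shares therefore do not give the recovery for the members, which met a signal threshold. Python 3.11.15 was used for summaries.

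The members and lists were chosen with earlier results of these data known. The text names members with 1 gene as follows: the 10 largest called falls at 12 h, the 8 most negative at 24 h, the 5 with the highest not induced 24 h signal, the 5 nearest 0 at 12 h, any called higher at 12 h, and those nearest each threshold. Other members, families and neighbouring genes were named after their values were seen, and roles are background knowledge. Alternatives were a filter at the 40th percentile, scaling of the arrays to 1 median, quantile normalization, an offset of 5.66, signals raised to background, no trend, array weights, a replicate block, only the 12 h arrays, no probe sets of several genes, and leaving out each 12 h array. No sequences were used here.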

Additional observations from a re-analysis of the deposited data

Results flagged for a closer look

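In 4 of the 83 members every induced array lay above every not induced array at 6 h and below every one at 24 h. The rule had fixed the 24 h direction. Of all tested probe sets, 8.7% had induced arrays wholly above at 6 h, a larger share than among the members. AT4G22212, the defensin-like gene, had a 6 h log2 difference of 0.15, with signals of 305, 317 and 286 against 272, 278 and 270.4. The other 3 have no gene name here. The largest of their 6 h differences was 1.28, with 28.6, 24.8 and 23.2 against 18.5, 13.6 and 4.59, 1 of the latter at background. The remaining differences were 0.30 and 0.40. At 6 h none of the 4 passed limma, with adjusted p-values, in the order given, of 0.777, 0.159, 0.538 and 0.207. The rule used both times, so the difference between the times was not tested.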

How the results depend on the processing

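The count of members called lower at 12 h was 37, and 23 with no intensity trend. With single 12 h arrays left out it ranged from 20 to 31. Under the other settings run it lay between 35 and 42. Calls of a higher level stayed at 0 in all of them. Over all tested probe sets, 440 were called lower in the main fit and 313 with no trend. With single arrays left out, that number ranged from 248 to 416. The median 12 h difference of -0.72 moved to -0.62 when the background level was added before the log, and ranged from -0.77 to -0.66 with arrays left out. Of the 37 called members, 18 were called in every alternative that tested them. Among the 22 named members, 350 values were compared with the main fit. A call was lost in 37 of them, all from the 12 members called lower there, since the others had no call to lose. In 9 values a call was gained, and 0 calls reversed direction. Some differences near 0 that were not called did change sign. That of AT5G14330 was 0.27 in the main fit and -0.07 without replicate 3 of the not induced 12 h plants. Of the 12 named members called lower, 6 kept the call throughout. Over all tested probe sets, same-numbered arrays did not deviate together (correlations of -0.03 to 0.01). Many of these probe sets were dim, so the correlations cannot show whether same-numbered arrays shared a plate or batch. With a replicate block the count of members called lower was 35 (34 of them among the 37). Chosen after the data were seen, the rule applied under quantile normalization or with 1 median kept 74 and 71 of the 83 members, and with signals raised to background 83. The planned search of members' promoters was not run, since no sequences were used here. Signal over background limits the values of dim probe sets, and 5 members had an induced 24 h array at background.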
